A study of Mus musculus with 18 samples.

Results

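The cholesterol and lipid synthesis genes form a module of 31 genes listed by symbol for their place in these pathways, and 30 of them were measured among the 19938 genes of the table. Acat2 had no probe set with a single gene symbol and was not analysed here. Idi1, Fdft1 and Acaca had 2 probe sets each, and the one with the higher mean level was used. The cells were F9, an embryonal carcinoma line of the mouse that retinoic acid drives to differentiate. They received the solvent ethanol (the vehicle) or 1 of 4 agonists of the retinoic acid receptors (RAR). All-trans retinoic acid (ATRA), BMS753 (specific for RARα, per the labels) and BMS641 (RARβ) were added at 1 µM and BMS961 (RARγ) at 0.1 µM, so no comparison with BMS961 is at a matched dose. Total RNA was measured on 18 Affymetrix arrays, 1 for each ligand at 2, 6, 24 and 48 h and 2 for vehicle at 48 h. All groups are the same line under the same serum-containing medium. No label states that the arrays of a group came from separate cultures, so p-values measure only the spread between these samples, which may be technical. With 1 array for each ligand and time, that spread is how far ligands depart from common time steps. Tests against vehicle also use the vehicle pair.

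Cells build cholesterol from acetyl-CoA through mevalonate, isoprenoid diphosphates and squalene, and the sterol ring is then trimmed in a series of steps. The transcription factor SREBP2, encoded by Srebf2, raises transcription of most of these enzymes when sterol in the endoplasmic reticulum is low: SCAP carries it to the Golgi for cleavage, and INSIG proteins hold it back when sterol is plentiful. Related SREBP forms drive fatty acid synthesis and desaturation, so the enzymes of both pathways are known to rise and fall together.

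The deposited values are log2 levels of probe sets, between 2.05 and 14.36, with array medians of 5.31 to 5.47. A difference of 1 on this scale is 2-fold. The mean level of every one of the 30 members was above the median gene. Levels of different genes are not compared with each other, because a probe set's brightness also depends on its probes. As a check of the cell type, the 11 pluripotency markers had a median level between 10.30 and 11.59 on the 18 arrays, with vehicle replicate 1 highest and ATRA at 48 h lowest. For 14 markers of primitive and parietal endoderm this median went from 6.16 on vehicle replicate 2 to 9.43 on BMS961 at 48 h and 10.36 on ATRA at 48 h. The 8 visceral endoderm, 7 fibroblast and 5 neural markers had medians of 4.38 to 5.25, 5.49 to 6.17, and 5.28 to 6.73. These ranges describe each list across arrays and do not rank one list against another. The vehicle arrays differed by a median of 0.23 in size over all genes. The number of arrays limits the precision throughout.

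The median of the members was low on 3 arrays and higher on the other 15, though not every member followed it. Each gene was centred on its own mean over the 18 arrays, and the median of the 30 centred values was taken for each array. That median was -0.83 on vehicle replicate 1, -0.80 on ATRA at 24 h and -0.56 on ATRA at 48 h. Vehicle replicate 2 was at 0.13. ATRA at 2 h and 6 h stood at 0.30 and -0.02, the highest and the lowest of the other 15 arrays. The 12 BMS arrays ranged from 0.05 to 0.23. The low arrays thus comprised 1 of the 2 vehicle arrays and the later 2 of the 4 ATRA arrays, and no BMS array. In bulk RNA, fewer cells of a type and less RNA per cell cannot be told apart.

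**Figure D1:**
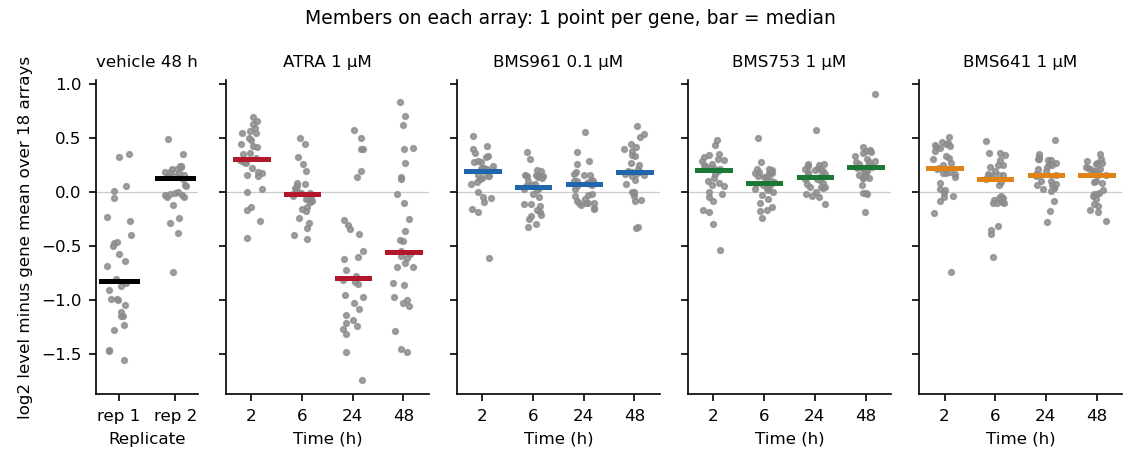
Deviation of the 30 members from their own mean level (log2, y axis) on each of the 18 arrays (x axis), 1 point a gene, with the median of the members marked. The medians of vehicle replicate 1 (-0.83), ATRA at 24 h (-0.80) and ATRA at 48 h (-0.56) lie below those of the other 15 arrays, which run from -0.02 to 0.30.

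The mevalonate branch runs from HMG-CoA synthase (Hmgcs1) through the mevalonate kinases Mvk and Pmvk, the decarboxylase Mvd, the isomerase Idi1 and farnesyl diphosphate synthase (Fdps) to geranylgeranyl diphosphate synthase (Ggps1). Hmgcs1 had a log2 level of 9.59 and 11.27 on vehicle replicates 1 and 2, and of 11.35, 10.81, 9.73 and 10.05 with ATRA at 2, 6, 24 and 48 h. It lay between 11.30 and 11.45 with BMS961, 11.30 and 11.44 with BMS753, and 11.20 and 11.43 with BMS641. Vehicle replicate 1 and the late ATRA arrays therefore lay below all 12 BMS arrays, and vehicle replicate 2 lay among them. Idi1 had a level of 8.68 and 10.65 on the vehicle arrays and of 10.71, 10.16, 8.41 and 8.67 with ATRA in order of time. With BMS961 it went through 10.68, 10.53, 10.26 and 9.83, with BMS753 it lay between 10.42 and 10.65, and with BMS641 between 10.51 and 10.64. Its range over the arrays, 2.29, was the widest in the module, and its lowest BMS array was BMS961 at 48 h. Pmvk had 6.94 and 7.96 on the vehicle arrays, 7.97, 7.61, 6.93 and 7.12 with ATRA, and 7.72 to 8.40 on the BMS arrays. Mvd had 7.77 and 8.94, then 9.31, 8.80, 7.85 and 8.27 with ATRA, and 8.82 to 9.33 on the BMS arrays. Both were lower on vehicle replicate 1 and late ATRA than on any BMS array. So were Fdps, with 9.18 and 10.17 on the vehicle arrays, 10.53, 10.24, 9.03 and 9.30 with ATRA and 10.19 to 10.54 on the BMS arrays, and Mvk. Mvk had 7.35 and 7.83 on the vehicle arrays, 8.13, 7.82, 7.25 and 7.31 with ATRA and 7.87 to 8.23 on the BMS arrays. The ranges of the others were 0.98 for Mvk, 1.46 for Pmvk, 1.56 for Mvd, 1.51 for Fdps and 0.86 for Ggps1. Ggps1 ran the other way, with its highest level, 9.11, on ATRA at 24 h.

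Squalene synthase (Fdft1), the epoxidase Sqle and lanosterol synthase (Lss) make the first sterol, and Cyp51, Tm7sf2, Msmo1, Nsdhl, Hsd17b7, Ebp, Sc5d and Dhcr7 convert it towards cholesterol. Sqle had a level of 9.59 and 10.48 on vehicle replicates 1 and 2, of 10.66, 9.80, 9.26 and 9.21 with ATRA in order of time, and between 10.14 and 10.67 on the 12 BMS arrays. ATRA at 6 h was already below every BMS array for this gene. Dhcr7, the reductase of the last step to cholesterol, had a level of 7.22 and 8.55 on the vehicle arrays, of 8.96, 8.35, 6.88 and 7.30 with ATRA, and between 8.25 and 8.85 on the BMS arrays. Its 3 low arrays were again vehicle replicate 1 and late ATRA. Fdft1 had 9.83 and 11.06 on the vehicle arrays, 11.10, 10.68, 9.86 and 10.12 with ATRA, and 10.86 to 11.18 on the BMS arrays. Lss had 8.17 and 9.23, then 9.43, 9.12, 8.30 and 7.79 with ATRA, and 9.15 to 9.497 on the BMS arrays. Lss was the gene of this branch that was lower at 48 h than at 24 h by the widest margin. Cyp51, the lanosterol demethylase, had 7.87 and 9.03 on the vehicle arrays, 9.18, 8.39, 7.84 and 8.22 with ATRA, and 8.49 to 9.14 on the BMS arrays. Nsdhl had 8.03 and 9.02, then 9.60, 8.88, 7.81 and 8.31 with ATRA, and 8.77 to 9.32 on the BMS arrays. For both, ATRA at 2 h was above every BMS array, as it also was for Hsd17b7, which had 7.48 and 8.68 on the vehicle arrays, 9.19, 8.52, 7.71 and 7.69 with ATRA and 8.45 to 8.93 on the BMS arrays. Msmo1 had 11.44 and 12.04 on the vehicle arrays, 12.46, 11.83, 11.51 and 11.32 with ATRA, and 11.82 to 12.13 on the BMS arrays. Tm7sf2 had 7.48 and 7.81, then 8.28, 8.25, 7.50 and 7.95 with ATRA, and 7.89 to 8.44 on the BMS arrays, so that ATRA at 48 h overlapped the BMS arrays for this gene. The ranges over 18 arrays were 2.08 for Dhcr7, 1.78 for Nsdhl, 1.71 for both Lss and Hsd17b7, 1.46 for Sqle, 1.35 for Fdft1, 1.34 for Cyp51, 1.14 for Msmo1, 0.96 for Tm7sf2, 0.77 for Sc5d and 0.75 for Ebp. Lowest levels were found on vehicle replicate 1 or on an ATRA array of 24 h or 48 h for all 11 genes. Ebp and Sc5d were not low on both late ATRA arrays, though. Ebp had 8.92 with ATRA at 24 h and its highest level, 9.67, at 48 h. Sc5d had 8.77 and 9.01 at these times, and 8.86 to 9.32 on the BMS arrays.

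Of the regulators, Insig1 is itself a known SREBP target. Its level was 9.20 and 10.60 on vehicle replicates 1 and 2, 10.98, 10.43, 9.23 and 8.98 with ATRA in order of time, and between 10.54 and 10.95 on the 12 BMS arrays. Vehicle replicate 1 and late ATRA were more than 1 log2 unit below every BMS array. Srebf2 ran the same way over a narrower range of 0.9996, with 8.91 and 9.59 on the vehicle arrays, 9.89, 9.45, 8.98 and 8.90 with ATRA, and 9.56 to 9.90 on the BMS arrays. Insig2 and Scap had ranges of 0.62 and 0.69.

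The transport genes were those of the cytosolic carrier STARD4, and of NPC1 and NPC2, which release cholesterol from lysosomes. Stard4 had a level of 8.06 and 9.58 on vehicle replicates 1 and 2, of 9.34, 9.0, 8.15 and 8.90 with ATRA, and between 9.49 and 9.79 on the BMS arrays. Npc1 ran the other way: 8.55 and 8.26 on the vehicle arrays, 8.37, 8.60, 8.95 and 9.38 with ATRA, and 8.15 to 8.81 on the BMS arrays. Npc2 had 9.40 and 9.01 on the vehicle arrays, 8.79, 8.96, 9.45 and 9.68 with ATRA, and 8.84 to 9.13 on the BMS arrays. The late ATRA arrays had the highest levels of both lysosomal genes, and vehicle replicate 1 was the next array for Npc2.

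The fatty acid members were the synthase Fasn, acetyl-CoA carboxylase (Acaca), the acetyl-CoA synthetase Acss2 and the desaturases Fads1 and Fads2. Fasn had a level of 9.67 and 11.003 on vehicle replicates 1 and 2, of 11.45, 10.90, 9.58 and 9.84 with ATRA in order of time, and between 10.72 and 11.15 on the BMS arrays, the same order as the sterol enzymes. Fads2 had 8.27 and 9.98 on the vehicle arrays and 10.15, 9.86, 8.56 and 9.58 with ATRA, against 9.89 to 10.34 on the BMS arrays. Acaca had 8.41 and 9.62, then 9.90, 9.68, 8.69 and 9.05 with ATRA, and 9.31 to 9.73 on the BMS arrays. Acss2 and Fads1 did not have this order. Acss2 had 7.78 and 6.98 on the vehicle arrays and 7.87, 8.22, 8.30 and 8.13 with ATRA. With BMS961 it went through 7.11, 7.50, 8.28 and 8.26, with BMS753 through 7.18, 7.48, 8.30 and 8.63, and with BMS641 through 6.98, 7.12, 7.45 and 7.45. Each BMS ligand thus had more Acss2 RNA at 24 h and 48 h than at 2 h, and BMS641 the least of them. Fads1 had 9.59 and 9.44 on the vehicle arrays, 10.26, 10.27, 9.96 and 10.53 with ATRA, and 9.503 to 10.24 on the BMS arrays.

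**Figure D2:**
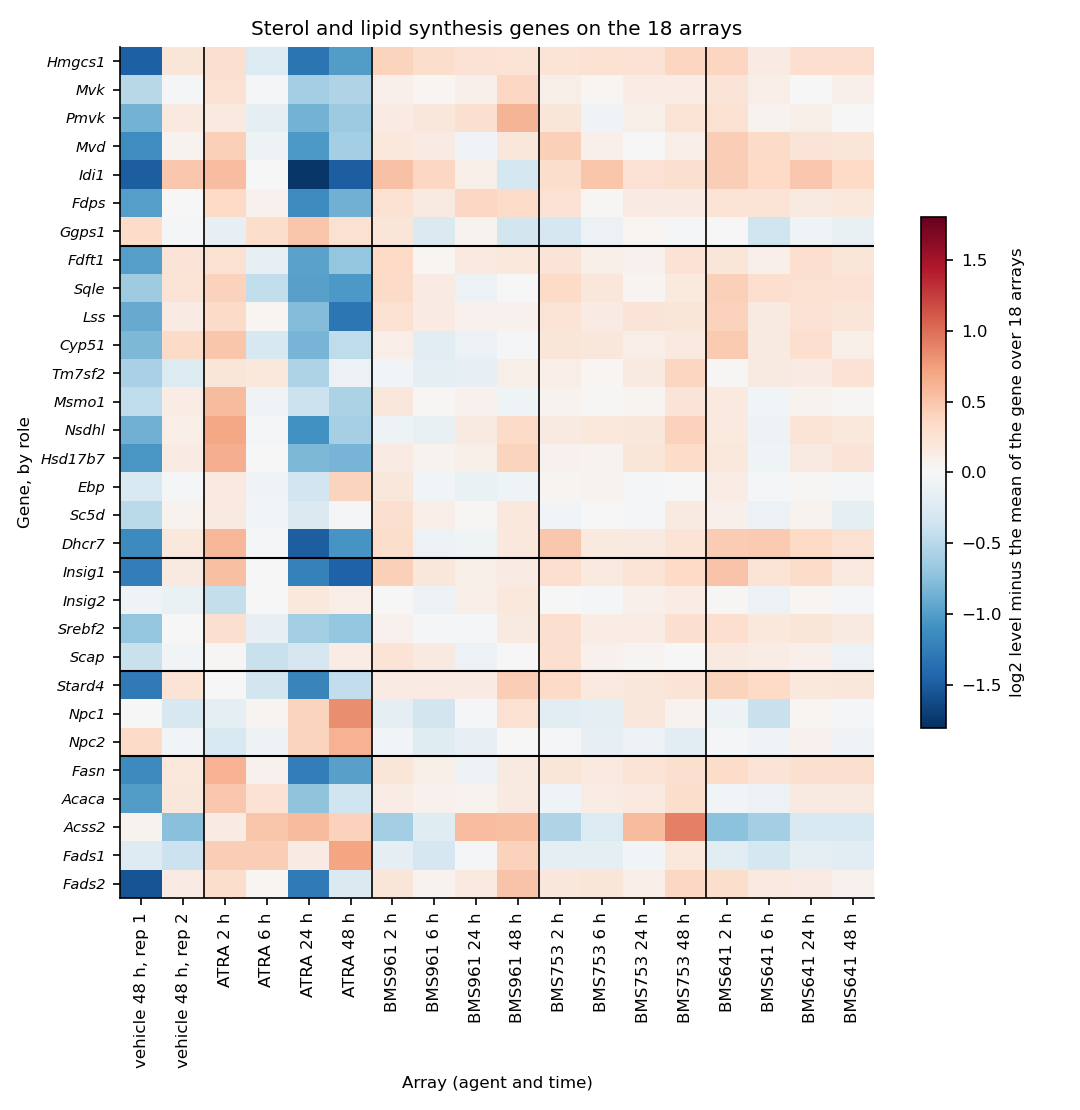
Level of each of the 30 members (y axis, grouped by role) on each of the 18 arrays (x axis), as the difference from the gene's mean over the arrays (log2, colour scale from -1.8 to 1.8). The columns of vehicle replicate 1 and of ATRA at 24 h and 48 h are low for most members, while Npc1, Npc2, Acss2 and Fads1 are above their mean on the late ATRA arrays.

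**Figure D3:**
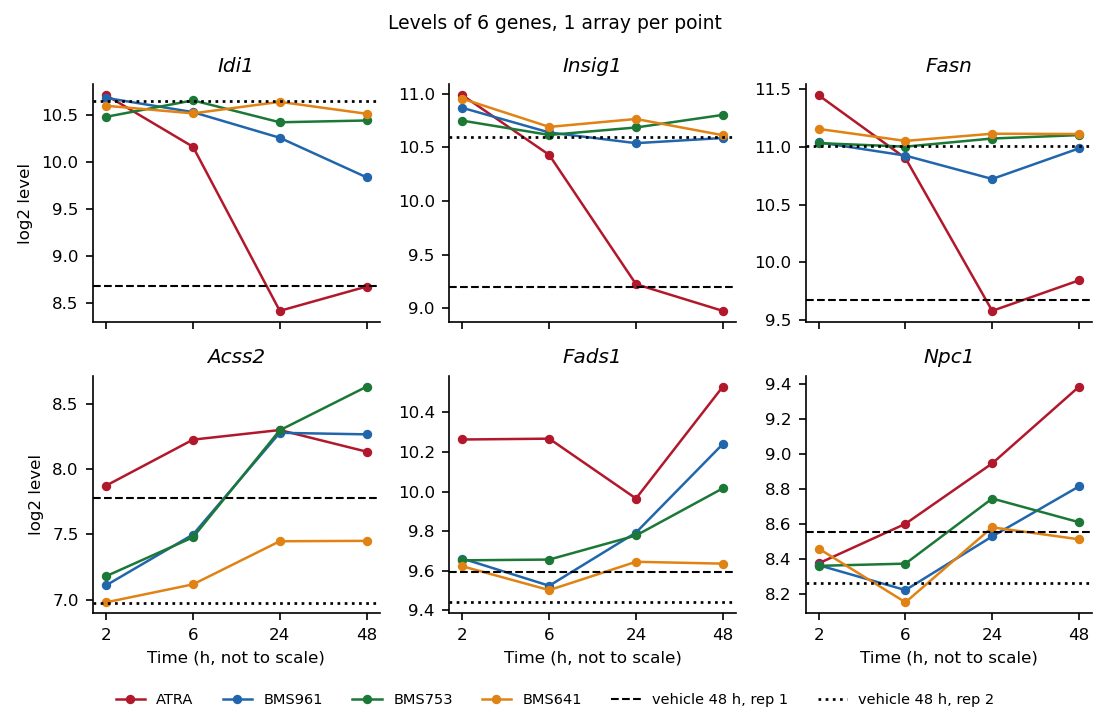
Log2 level (y axis) of Idi1, Insig1, Fasn, Acss2, Fads1 and Npc1 at each time (x axis, h, not to scale), 1 line a ligand and 1 point an array, with the vehicle arrays, taken at 48 h, as a dashed (replicate 1) and a dotted (replicate 2) line across each panel. Idi1 with ATRA goes from 10.71 at 2 h to 8.41 at 24 h, so first above and then below both vehicle arrays (8.68 and 10.65); Acss2 rises to 8.63 with BMS753 and to 7.45 with BMS641.

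The promoters of 5 of these genes are shown because their RNAs carry the pattern: Hmgcs1, Idi1, Insig1 and Fasn with low late ATRA arrays, and Acss2, which ran otherwise. Each line is the 250 bases before the RefSeq start site (build GRCm38.p6), read 5′ to 3′ on the gene's strand. The regions are chr13:119690101-119690350 on the plus strand for Hmgcs1, chr13:8885356-8885605 (plus) for Idi1, chr5:28071162-28071411 (plus) for Insig1, chr11:120824548-120824797 (minus) for Fasn and chr2:155517793-155518042 (plus) for Acss2. Capitals mark the sterol regulatory element TCACNCCAC and the NF-Y box CCAAT on either strand, letters read by factors known to work together at SREBP targets.
Hmgcs1: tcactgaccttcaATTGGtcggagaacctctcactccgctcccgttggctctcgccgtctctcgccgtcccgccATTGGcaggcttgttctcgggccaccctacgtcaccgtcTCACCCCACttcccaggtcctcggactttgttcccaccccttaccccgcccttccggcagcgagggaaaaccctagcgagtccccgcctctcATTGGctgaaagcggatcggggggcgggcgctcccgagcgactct
Idi1: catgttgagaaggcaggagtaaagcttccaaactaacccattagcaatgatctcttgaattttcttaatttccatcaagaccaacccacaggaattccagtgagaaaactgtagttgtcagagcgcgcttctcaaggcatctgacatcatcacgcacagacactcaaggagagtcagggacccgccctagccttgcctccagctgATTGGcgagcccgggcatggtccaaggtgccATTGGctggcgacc
Insig1: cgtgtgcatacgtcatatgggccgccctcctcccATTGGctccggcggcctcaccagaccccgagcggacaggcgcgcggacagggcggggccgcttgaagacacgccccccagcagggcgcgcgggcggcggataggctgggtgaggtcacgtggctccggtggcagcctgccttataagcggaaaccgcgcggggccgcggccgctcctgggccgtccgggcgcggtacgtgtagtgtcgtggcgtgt
Fasn: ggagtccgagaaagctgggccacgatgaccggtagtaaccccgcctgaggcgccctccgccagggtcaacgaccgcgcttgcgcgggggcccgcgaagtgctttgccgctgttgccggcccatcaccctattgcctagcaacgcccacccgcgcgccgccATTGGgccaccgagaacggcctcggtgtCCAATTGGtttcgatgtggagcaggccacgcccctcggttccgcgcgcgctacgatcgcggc
Acss2: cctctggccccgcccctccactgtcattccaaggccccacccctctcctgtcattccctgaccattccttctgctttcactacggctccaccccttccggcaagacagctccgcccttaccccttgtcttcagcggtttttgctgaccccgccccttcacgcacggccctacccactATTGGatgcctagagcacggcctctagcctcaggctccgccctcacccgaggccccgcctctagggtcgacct
Hmgcs1 has 1 match to the sterol regulatory element, at positions -137 to -129 from the start, and 3 NF-Y boxes. Idi1 has 2 NF-Y boxes, Insig1 and Acss2 1 each, and Fasn 3, of which 2 overlap in the run CCAATTGG.

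Of the 30 members, 24 had a promoter in the table, with 30 windows in all; Fdps, Fdft1, Sqle, Stard4, Npc1 and Fads1 had none there. Exact matches were sought on both strands in the 250 bases. The NF-Y box was found in 21 of the 30 member windows (70%), each of a different gene, against 33.9% of all 32851 windows and 35.4% of the 21263 windows of protein-coding genes. The Sp1 box GGGCGG was found in 22 of 30 (73.3%), against 32.7% of all and 42.6% of protein-coding windows. The E-box CACGTG was in 5 of 30 (16.7%), against 6.02% of all windows. The sterol element, in this strict spelling, was in the Hmgcs1 window only among the members, against 1.05% of all windows. The DR5 retinoic acid response element, 2 copies of AGGTCA or GGTTCA in the same direction with 5 bases between, was in 0 of 30 member windows and in 0.018% of all. A match is a description of letters and not a binding site, and no match says only that these letters are not in the window. The NF-Y box was also present for Acss2, Ggps1, Insig2 and Npc2, whose RNAs did not follow most of the sterol enzymes.

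The vehicle arrays differed in this module more than in most genes. Vehicle replicate 1 was below replicate 2 in 24 of 30 members, with a median difference of -0.99, while the median over all genes was 0.05. It was at least 2-fold lower in 14 of 30 members, and 1.78% of all genes were. Idi1 differed most (-1.97, 3.91-fold), followed by Fads2 (-1.70), Hmgcs1 (-1.68) and Stard4 (-1.52). Ggps1, Insig2, Npc1, Npc2, Acss2 and Fads1 were higher on replicate 1, by at most 0.80 (Acss2). This is a comparison of one array with another and has no test. Other genes differed between these arrays too: the 18 measured genes of a glycolysis and hypoxia list were lower on replicate 1 by a median of 0.86, with 7 at least 2-fold lower, and the 11 pluripotency and 14 primitive and parietal endoderm markers were higher by medians of 0.60 and 0.76. Their part in the module's difference was not tested.

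Because the vehicle arrays lay so far apart, every ligand array is given against each of them. Both were taken at 48 h, so only the ligand arrays of 48 h are matched to them in time. Against vehicle replicate 1, ATRA had 18, 10, 0 and 1 of 30 members at least 2-fold higher at 2, 6, 24 and 48 h, where 1.09%, 0.732%, 0.562% and 4.05% of all genes were. The medians of the members were 1.16, 0.72, 0.07 and 0.28, and the single gene at 48 h was Fads2 (1.302). The BMS ligands had about as many members up at every time: 56 of 120 pairs of member and array for BMS961 (background 1.61%), 59 of 120 for BMS753 (1.28%) and 56 of 120 for BMS641 (1.34%), with medians per array from 0.76 to 1.06.

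Against vehicle replicate 2 the picture turned over. ATRA had 0, 0, 14 and 7 members at least 2-fold lower at 2, 6, 24 and 48 h, beside 1.14%, 1.32%, 3.13% and 2.68% of all genes, and medians of 0.20, -0.13, -0.95 and -0.69. ATRA had 0, 1, 1 and 3 members at least 2-fold higher at these times, beside 1.45%, 1.83%, 3.46% and 6.29% of all genes. They were Acss2 at 6, 24 and 48 h (1.25, 1.32 and 1.16), and Npc1 (1.12) and Fads1 (1.09) at 48 h. None of the 360 pairs of member and BMS array was 2-fold lower (0.346% of all genes and arrays), and 4 were 2-fold higher (0.617%). Those 4 were Acss2 with BMS961 and BMS753 at 24 h and 48 h, by 1.29 to 1.65. Medians of the 12 BMS arrays lay between -0.05 and 0.16. The choice of vehicle array therefore sets whether the BMS ligands appear to raise the module and whether late ATRA appears to lower it. Both series share their ligand arrays.

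The tests of ligand against vehicle use the mean of both vehicle arrays, in one limma model of all 18 arrays. Early is the mean of 2 h and 6 h and late that of 24 h and 48 h. These are different times, not replicates. Both vehicle arrays were taken at 48 h, so ligand and time cannot be told apart in the early tests, nor fully in the late ones. A gene was called at a Benjamini-Hochberg adjusted p under 0.05 over all 19938 genes, and ± is the SE of the fit. With ATRA late, 3 of 30 members were called, beside 4.71% of all genes, and all 3 were higher than vehicle: Fads1 by 0.73 ± 0.14 (adjusted p = 0.0162), Npc1 by 0.76 ± 0.17 (0.0317) and Acss2 by 0.84 ± 0.21 (0.0463). None of the sterol enzymes passed; the nearest were Sqle (-0.80 ± 0.25, adjusted p = 0.0864) and Idi1 (-1.12 ± 0.45, 0.183). With ATRA early, 1 member was called (background 1.25%), Fads1, which was higher than the 48 h vehicle by 0.75 ± 0.14 (adjusted p = 0.0261). BMS961, BMS753 and BMS641 had 0 members called late, beside 1.26%, 0.186% and 0% of all genes, and 0 early, beside 0.0401%, 0% and 0%. At an unadjusted p under 0.05 BMS961, BMS753 and BMS641 had 11, 14 and 12 of 30 members late. Beside them 2307, 1741 and 916 of all 19938 genes were at that level. Early the 3 ligands had 8, 11 and 13 of 30 members, beside 1401, 1115 and 1501 of all genes.

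Which vehicle array entered the model decided these counts. The share of all genes called in each of the following refits is not given here. The counts of members are therefore not set against a background and do not tell the module from other genes. Without vehicle replicate 1, ATRA late had 24 members called, 20 lower and 4 higher, BMS961 and BMS753 had 1 each and BMS641 had 0. Without vehicle replicate 2, ATRA late had 0, and BMS961, BMS753 and BMS641 late had 17, 20 and 20, all higher. Early, the counts without replicate 2 were 18, 18, 20 and 21 for ATRA, BMS961, BMS753 and BMS641. ATRA late also had 0 called without its 48 h array, and ATRA early 0 without either of its arrays.

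Comparing ligands at the same time avoids the vehicle arrays. ATRA minus BMS641 had a median over the members of 0.04 at 2 h, -0.14 at 6 h, -0.97 at 24 h and -0.64 at 48 h. At 24 h 14 of 30 members were at least 2-fold lower with ATRA, and at 48 h 9 of 30, where 2.74% and 2.16% of all genes were; at 2 h and 6 h 0 were. BMS961 minus BMS641 had medians between -0.09 and 0.01, and BMS753 minus BMS641 between -0.07 and 0.10, with no member 2-fold lower at any time.

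In the fit to the 16 ligand arrays, 25 of 30 members differed between ATRA and BMS641 late, 21 lower and 4 higher with ATRA, while 21% of all genes were called. The median of the members was -0.85 and that of all genes -0.04. In the mevalonate branch 6 of 7 fell, all except Ggps1 (0.49, adjusted p = 0.112). Idi1 was lower by 2.03 ± 0.18 (4.09-fold, adjusted p = 5.3e-05) and Hmgcs1 by 1.47 ± 0.14 (2.77-fold). The other called genes of the branch had differences of -1.18 (Fdps), -1.04 (Mvd), -0.80 (Pmvk) and -0.63 (Mvk). Of the squalene and sterol ring genes 9 of 11 fell. Dhcr7 was lower by 1.59 ± 0.16 (3.002-fold, adjusted p = 0.000103), and Lss (-1.28), Sqle (-1.27), Fdft1 (-1.09), Nsdhl (-1.06), Hsd17b7 (-1.03), Cyp51 (-0.85), Tm7sf2 (-0.54) and Msmo1 (-0.52) followed. Ebp (0.03) and Sc5d (-0.09) did not pass.

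Among the regulators 2 of 4 fell in that comparison: Insig1 by 1.59 ± 0.13 (3.004-fold, adjusted p = 3.76e-05) and Srebf2 by 0.84 ± 0.12. Insig2 (0.15) and Scap (-0.08) did not pass. The transport genes split, with Stard4 lower by 1.01 ± 0.17 and Npc1 and Npc2 higher by 0.62 ± 0.16 and 0.50 ± 0.13. The fatty acid genes split as well: Fasn (-1.40 ± 0.14, 2.64-fold), Fads2 (-0.88 ± 0.20) and Acaca (-0.70 ± 0.13) were lower, and Acss2 (0.77 ± 0.13) and Fads1 (0.61 ± 0.14) higher. Leaving out any 1 of the late ATRA or BMS641 arrays leaves 1 array in that group. The share of all genes called in such refits is not given here, so their counts of members have no background.

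**Figure D4:**
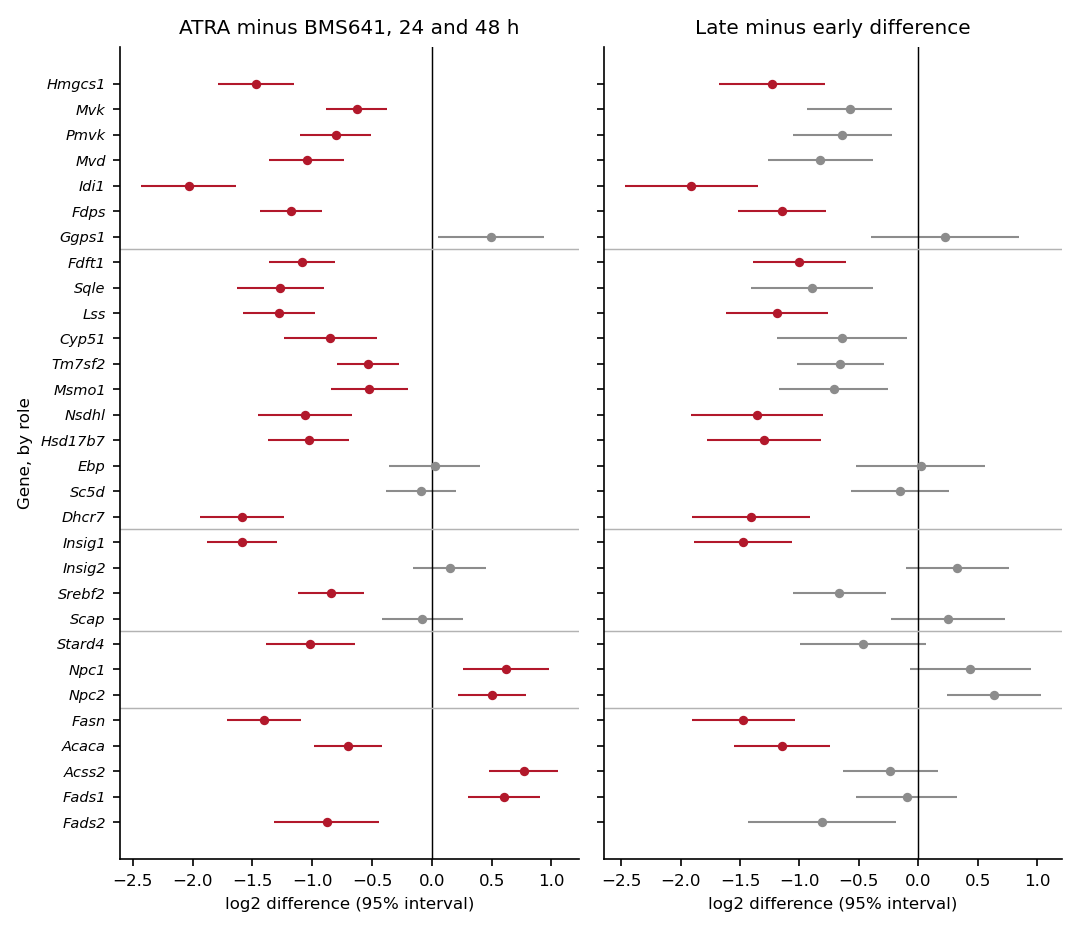
Difference ATRA minus BMS641 (log2, x axis) of each of the 30 members (y axis, grouped by role), late in the left panel and late minus early in the right one; bars are 95% intervals from the limma fit, and members called at an adjusted p under 0.05 are red. Late values run from -2.03 (Idi1) to 0.77 (Acss2), with 21 members called lower and 4 higher with ATRA, and in the right panel 11 are called, all lower.

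Over the 4 times together, 14 of 30 members differed between ATRA and BMS641, beside 19.5% of all genes. There 11 were lower, among them Idi1 (-1.08 ± 0.31), Hmgcs1 (-0.85 ± 0.22), Sqle (-0.82 ± 0.17) and Stard4 (-0.78 ± 0.16), and Npc1 (0.40), Fads1 (0.65) and Acss2 (0.88) were higher. The count went down to 4 without ATRA at 24 h and without BMS641 at 24 h, to 5 without BMS641 at 48 h, 7 without ATRA at 48 h and 8 without BMS641 at 6 h, and up to 23 without ATRA at 2 h. The share of all genes called in these refits is not given here. The changes in count therefore do not tell the module from other genes.

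A limit of these ATRA comparisons lies in the arrays themselves. Over all 19938 genes, the difference between the vehicle arrays (replicate 1 minus 2) correlated with ATRA minus BMS641 at every time, with Pearson's r across genes of 0.49, 0.49, 0.77 and 0.41 at 2, 6, 24 and 48 h; genes are not independent replicates, and these differences share no array. Over the 30 members r was 0.11, 0.68, 0.96 and 0.85. At 24 h the 2 differences had the same sign in 30 of 30 members, and 11 members were at least 2-fold lower in both. Vehicle replicate 1 and the ATRA arrays were taken as one set of arrays and the others as a second, a grouping made from these values and not from the labels. In the members this likeness was absent at 2 h, where the 2 differences had the same sign in 11 of 30. With that set as a block, which compares ATRA with vehicle replicate 1 and BMS641 with replicate 2, 0 members were called late (2 at an unadjusted p under 0.05) and the median was 0.12; over the 4 times 0 were called (3 at an unadjusted p under 0.05) and the median was 0.48. Idi1 late was then -0.06 ± 0.31 and Insig1 -0.19 ± 0.23, with a wider SE than in the fit without the block. The shares of all genes called in the block fits are not given here. The counts of members in them therefore do not tell the module from other genes. The block removes the vehicle difference from which the set was drawn. Its outcome was largely fixed by that choice and is not an independent test. Ligand and array set cannot be told apart in the difference between ATRA and BMS641 at a given time.

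The ATRA arrays were also compared with each other over time. Against its own 2 h array, ATRA had a median of -0.35 over the members at 6 h, -1.16 at 24 h and -0.90 at 48 h. At 24 h 17 of 30 members were at least 2-fold lower than at 2 h, where 1.32% of all genes were, and at 48 h 12 of 30, where 1.54% were. Npc1 was 2-fold higher at 48 h (1.01). No member was 2-fold lower at 6, 24 or 48 h than at 2 h with any BMS ligand.

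The test of this change is the late difference between ATRA and BMS641 minus the early one, in which an offset that is the same on all arrays of a set cancels by construction. A difference shared by vehicle replicate 1 and the late ATRA arrays alone would not cancel, and its part was not tested. By limma, 11 of 30 members were called, all lower, beside 3.01% of all genes, and the median of the members was -0.69. Idi1 had -1.91 ± 0.25 (adjusted p = 0.00573), Insig1 -1.47 ± 0.19 (0.00561) and Fasn -1.47 ± 0.20 (0.00573). The other 8 were Dhcr7 (-1.41), Nsdhl (-1.35), Hsd17b7 (-1.30), Hmgcs1 (-1.23), Lss (-1.19), Acaca (-1.15), Fdps (-1.15) and Fdft1 (-1.002). By role these are 3 of 7 mevalonate, 5 of 11 sterol ring, 1 of 4 regulatory, 0 of 3 transport and 2 of 5 fatty acid genes. Mvd (-0.82, adjusted p = 0.0558), Tm7sf2 (-0.65, 0.0637) and Sqle (-0.90, 0.0686) lay just outside. Acss2 (-0.23) and Fads1 (-0.10) did not pass, and both were already higher with ATRA than with BMS641 at 2 h. The count fell without ATRA at 2 h and without BMS641 at 2 h, 6 h or 48 h. Each of these refits has 1 array left in a group. The share of all genes called in them is not given here, so the fall does not tell the module from other genes. BMS961 and BMS753 against BMS641 had 0 members called in this test, beside 0.0903% and 0% of all genes; at an unadjusted p under 0.05 they had 2 and 1 members, and BMS753 had 541 of all genes.

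BMS961 and BMS753 were each compared with BMS641, and not with each other. Late, BMS961 and BMS753 each had 1 of 30 members called against BMS641, beside 3.21% and 0.191% of all genes, and it was Acss2 in both. It was higher with BMS961 by 0.82 ± 0.13 (adjusted p = 0.007) and with BMS753, at the same dose as BMS641, by 1.01 ± 0.13 (2.02-fold, adjusted p = 0.0137). The first call was lost without BMS961 at 24 h or 48 h or BMS641 at 48 h, and the second without BMS753 at 48 h or BMS641 at 24 h or 48 h. In the other 29 members the late difference from BMS641 was -0.16 to 0.26 for BMS753, with 95% intervals reaching from -0.54 to 0.57, and -0.53 (Idi1, adjusted p = 0.169) to 0.40 (Pmvk, adjusted p = 0.16) for BMS961, with intervals from -0.93 to 0.70. Over the 4 times neither ligand had a member called (background 0.461% for BMS961 and 0% for BMS753; 1 member each at an unadjusted p under 0.05, and 776 of all genes for BMS753). These p-values do not show that the ligands act alike.

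Time steps common to the 4 ligands called 0 members and 0% of all genes from 2 to 6 h, 6 to 24 h and 24 to 48 h. At an unadjusted p under 0.05 there were 1, 2 and 1 members and 459, 2324 and 1407 genes. From 2 to 6 h 28 of 30 members had a negative step, with a median of -0.18, which was -0.02 without ATRA at 2 h and -0.29 without ATRA at 6 h. Npc1 (0.36 ± 0.12) and Acss2 (0.50 ± 0.17) had the smallest p-values of the step from 6 to 24 h, with an adjusted p of 0.308 and 0.313.

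Other genes of the same pathways are given from 4 lists for ATRA against BMS641 late, where 21% of all genes were called. Of 11 genes that use mevalonate products 4 were lower (Nus1, Pdss2, Rabggta and Rabggtb, by 0.47 to 0.53) and 0 higher, with a median of -0.20. Of 10 genes of SREBP processing and sterol sensing, Tmem97 was lower (-0.96), and Mbtps1, a protease that cleaves SREBP, and Pgrmc1 were higher (0.37 and 0.58). Of 23 fatty acid and acyl-CoA genes 2 were lower, ATP citrate lyase (Acly, -0.85) and Mid1ip1 (-0.66), and 5 were higher, led by the elongase Elovl4 (1.42) and the acyl-CoA synthetase Acsl4 (1.02); the list median was -0.15. The list of sterol efflux, esterification and the LXR receptors, which sense oxysterols, had 9 measured genes. Soat1 and Soat2 (esterification) and Nr1h2 (an LXR receptor) were not measured. Of the 9 genes 5 were higher, among them Cyp27a1 (0.96), Mylip (0.90) and the lysosomal lipase Lipa. The exporter Abca1 was lower (-0.59), and the list median was 0.44. Lipa was dim on every array, with 3.82 and 5.14 on ATRA at 24 h and 48 h and 3.31 and 3.47 on BMS641, and without detection calls it is not shown to be above background. Acly (fatty acids), Pgrmc1 and Mylip were the genes of these 4 lists called in the late minus early test.

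Genes outside the pathways are given for the same comparison, where 21% of all genes were called. Of 18 glycolysis and hypoxia genes 15 were lower and 2 higher with ATRA than with BMS641 late, with a median of -1.07; the list's median deviation was -0.63 on vehicle replicate 1, -0.92 and -0.53 on ATRA at 24 h and 48 h, and -0.09 to 0.33 on the other 15 arrays. Of 15 genes of the unfolded protein and integrated stress responses 4 were higher and 1 lower, with a median of 0.35. Of 14 primitive and parietal endoderm markers 10 were higher and 0 lower (median 1.68), of 11 pluripotency markers 6 were lower and 0 higher (-0.49), of 8 visceral endoderm markers 2 were higher, of 7 fibroblast markers 1 was higher and 1 lower, and of 5 neural markers 1 was higher and 2 lower. The shares called among the visceral endoderm and fibroblast markers were near that of all genes. The median level of the endoderm markers was 7.76 and 10.36 on ATRA at 24 h and 48 h, 6.30 and 6.65 on BMS641 at those times, and 7.25 and 6.16 on the vehicle arrays. BMS961 at 48 h also had a high level of these markers, 9.43, with a module median of 0.19. In the late minus early test 3.01% of all genes were called. From the glycolysis and hypoxia list Pdk1 (-1.51), Ldha (-1.21), Pgam1 (-0.99), Pkm (-0.89) and Slc2a1 (-0.71) were lower there. Of the other lists outside the pathways, Tubb3 (-1.60) and Utf1 (-0.90) were lower, and Srgn (3.54), Sesn2 (1.01) and Chac1 (0.97) higher. A late fall with ATRA was thus not particular to the module. The part of these genes and cell types in the module's difference was not tested.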

How the data were processed

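Total RNA was labelled with biotin and hybridised to Affymetrix whole-transcript arrays, per the labels' protocols. The authors deposited log2 levels of 35556 probe sets on 18 arrays. The submitters' processing notes name RMA and Affymetrix Expression Console 1.1. The levels were used without further scaling or filter. The normalization batch of each array and its scan date were not given in the sources used here. RMA levels the distribution of arrays, so a shift of most genes at once would be hidden.

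The platform annotation gave 1 symbol to 21789 probe sets, several to 1621 and none to 12146, and 21698 were matched by Entrez number to the gene table. A gene was its 1-symbol probe set, or the one with the highest mean, which left 19938 genes.

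All genes were fitted with limma 3.58.1 under R 4.3.3, with Benjamini-Hochberg adjustment. The 18-array model had 9 group means and common steps from 2 to 6 h and 24 to 48 h (7 residual degrees of freedom); the 16-array models had ligand and time (9), or ligand within phase and the same steps (6). With 1 array for each ligand and time, the error rests on the difference between the vehicle arrays and on how far ligands depart from the common steps. Single arrays are differences with no test. The fits were tested on simulated data with independent noise and no offset between vehicle arrays or array sets. There the late minus early test recovered 37% of 2-fold and 83% of 4-fold changes. ATRA against BMS641 late recovered 74% and 95%. A member that did not pass may therefore still have changed.

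The members, gene lists, array set and rule for named genes were chosen with earlier results of these data known. Every measured member is named, with vehicle and ATRA arrays in full for called members and BMS arrays singly or by range. Lists were 5 of cell type markers, 4 of other pathway genes, glycolysis and hypoxia, and stress responses. Alternatives were quantile normalization, centring arrays on their median, averaging probe sets, genes above the median level, eBayes with trend and robust, phase averages, the array set as a block and leaving out each array. Promoters came from RefSeq (GRCm38.p6). Tables and figures were made in Python 3.11.15 (numpy 2.4.6, pandas 2.3.3, matplotlib 3.10.9).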

Additional observations from a re-analysis of the deposited data

Results flagged for a closer look

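For 11 members the difference between ATRA and BMS641 was not the same late (24 h and 48 h) as early (2 h and 6 h), by limma's test of that difference with Benjamini-Hochberg adjustment over 19938 genes. The late minus early values were -1.91 for Idi1, -1.47 for Insig1, -1.47 for Fasn, -1.41 for Dhcr7, -1.35 for Nsdhl, -1.30 for Hsd17b7, -1.23 for Hmgcs1, -1.19 for Lss, -1.15 for Fdps, -1.15 for Acaca and -1.002 for Fdft1. All 11 were lower late. Each phase and ligand had 2 arrays of different times, and the count changed when single arrays were left out. The shares of all genes called in those refits are not given here.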

How the results depend on the processing

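Values against vehicle turned on single vehicle arrays and were least stable. The shares of all genes called in the refits are not given here, so the ranges of called members have no background. Leaving out single arrays gave these ranges of called members: 0 to 24 for ATRA late, 0 to 17 for BMS961 late, 0 to 20 for BMS753 late, 0 to 20 for BMS641 late, 0 to 18 for ATRA early, 0 to 18 for BMS961 early, 0 to 20 for BMS753 early and 0 to 21 for BMS641 early. Against BMS641 they were 4 to 23 for ATRA over 4 times, 21 to 23 for ATRA late, 0 to 1 for BMS961 and for BMS753 late, and 3 to 15 for ATRA late minus early. With arrays centred on their median, ATRA late against vehicle had 1 member called, and ATRA against BMS641 late had 21 lower and 2 higher, with Npc1 (adjusted p = 0.0613) and Npc2 (0.0566) lost; centring moved the median of all genes there from -0.04 to -0.20. ATRA early had 2 with quantile normalization and 2 among genes above the median level. Averaging the ligand effect over phases gave 1 member each for BMS961 and BMS753 over 4 times.

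The median difference between the vehicle arrays, -0.99, was -0.87 with quantile normalization, -1.17 with centring and -0.77 as a mean. For ATRA minus BMS641 at 24 h (-0.97) it was -1.14 with centring and -0.80 as a mean, and at 48 h (-0.64) it was -0.71, -0.78 and -0.52 with quantile normalization, centring and the mean.

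With the array set as a block 0 members were called for ATRA against BMS641, over 4 times or late, and the signs of some members turned. The shares of all genes called in these fits are not given here. The set was made from these data, so this outcome is not an independent test. Listed are the members called without the block whose sign turned, while the other called members kept theirs. Over 4 times the values were then 0.83 for Hmgcs1, 0.54 for Mvd, 0.89 for Idi1, 0.64 for Fdft1, 0.0659 for Sqle, 0.37 for Lss, 0.64 for Cyp51, 0.45 for Dhcr7, 0.55 for Insig1, 0.17 for Srebf2 and 0.74 for Stard4. Late they were 0.22 for Hmgcs1, 0.22 for Pmvk, 0.13 for Mvd, 0.14 for Fdft1, 0.31 for Cyp51, 0.0778 for Msmo1, 0.17 for Hsd17b7, 0.50 for Stard4, 0.52 for Acaca, -0.0369 for Acss2 and 0.83 for Fads2. The late block was added after seeing the data. The cause was not tested. The labels number replicates of vehicle only, so no fit had a replicate block; the fit over 4 times pairs ligands by time.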

Other observations

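Genes outside the module were ranked by Pearson's r with the median of the members over the 18 arrays. This r is a description with no test. Aacs, which activates acetoacetate for lipid synthesis, was highest at 0.98, followed by Ost4 (0.97), Tufm, Ppa1 and Rbm8a (each 0.96), and Copz1, Hars, Psmd2, Nop9 and Dhx9 (each 0.95). Over the 15 arrays other than vehicle replicate 1 and late ATRA, r was 0.85 for Aacs, 0.47 for Ost4 and -0.01 for Dhx9. The lowest values over 18 arrays were those of Renbp (-0.96), Clybl and Uap1l1 (both -0.95), and B4galnt2 and Arrdc4 (both -0.94).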
